A study of Mus musculus with 4 samples.

Results

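Perilipins, CIDE proteins and the regulators of droplet lipolysis were examined in hearts of GSK-3beta Ser9Ala knock-in and wild-type mice. The genes were chosen by symbol, as Plin1, Plin2, Plin3, Plin4, Plin5, G0s2, Pnpla2, Cidea, Cideb and Cidec, and every probe set that the platform annotation assigned to only 1 of them was used. That gave 11 probe sets for 9 of the 10 genes, out of 18193 genes measured, and Plin1 was not analysed here. The knock-in group was 2 heart arrays from mice labelled GSK-3beta S9A (strain C57B6, aged 3.5 months), and the wild-type group was 2 heart arrays from mice of the same labelled strain aged 3.6 months. All hearts were taken at baseline, with no treatment in either group. GSK-3beta is a kinase that insulin signalling switches off through phosphorylation of its serine 9, and the Ser9Ala replacement takes that site away. The comparison asks how the replacement alters cardiac gene expression. The labels give neither the zygosity nor the sex of the mice, and no label states that the 2 hearts of a group are different animals. The p-values therefore rest on the spread between 2 arrays, which limma draws towards a spread estimated from all genes. That spread may be technical.

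Heart muscle burns mainly fatty acids and keeps a small store of them as triglyceride in lipid droplets. Perilipins coat the droplet and control the access of lipases. Pnpla2 encodes adipose triglyceride lipase (ATGL), which makes the first cut in triglyceride, and G0s2 encodes a small protein that binds and inhibits it. CIDE proteins sit where droplets touch and move lipid between them, which makes droplets larger. In bulk tissue, fewer cells of a type and less RNA per cell cannot be told apart.

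The values were log2 expression values from Affymetrix 3' arrays, and the median of the 45101 probe sets was 5.97 to 6.04 on the 4 arrays. Heart muscle markers were bright on every array, with the linear signals of 8 cardiomyocyte genes summing to 174568 and 179338 in the knock-in hearts and to 168285 and 173276 in the wild-type hearts. Gsk3b was at 9.82 and 9.87 in knock-in hearts and at 9.62 and 9.72 in wild-type hearts, a difference of 0.18 with a limma adjusted p of 0.761, which cannot check an amino acid change. All 14 hepatocyte markers were higher on both knock-in arrays than on both wild-type arrays, as were 19.6% of all genes. Their values are given beside Cideb.

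None of the 9 measured genes passed limma's test over all genes at an adjusted p of 0.05, which 0.00550% of all genes did. At an unadjusted p under 0.05, 5 of the 9 differed between the groups, where 7.39% of all 18193 genes did. Of these 5, Cideb, Plin3 and G0s2 were higher in knock-in hearts (4.40% of all genes were higher at this p) and Plin2 and Plin5 were lower (2.99% of all genes). The 2 groups of arrays did not overlap in 6 of the 9 genes, the same 5 and Pnpla2, nor in 36.5% of all genes. In 3 of the 6 the knock-in arrays were above (19.6% of all genes) and in 3 below (17.0% of all genes). Only Cidec had a mean below the median of all genes. Among the 9096 genes above that median, 9.73% had an unadjusted p under 0.05 and 43.9% had groups that did not overlap. The median difference, knock-in minus wild-type, was -0.08 over the 9 genes and 0.00024 over all genes on the log2 scale. The genes went both ways, and the middle value of the 9 was that of Cidec. The median of the absolute differences was 0.29 over the 9 genes and 0.09 over all genes.

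The stretch of 250 bases before the start of transcription is shown for the 5 genes at an unadjusted p under 0.05, so that the sequences can be set beside their opposite directions. They are RefSeq sequences of build GRCm38.p6, written 5′ to 3′ towards the start. Capitals mark the motifs that were found among the 4 searched on both strands, AGGTCA (the nuclear receptor half-site that PPARs recognise), CACGTG (the E-box of clock factors), GTAAACA (the FoxO site) and TATAAA (the TATA box).
Cideb, chr14:55758425-55758674, minus strand: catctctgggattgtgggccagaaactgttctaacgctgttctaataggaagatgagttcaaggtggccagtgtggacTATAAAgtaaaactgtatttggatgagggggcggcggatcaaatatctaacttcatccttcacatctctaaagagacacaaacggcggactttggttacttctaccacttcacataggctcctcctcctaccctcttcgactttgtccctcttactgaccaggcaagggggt
Plin3, chr17:56290512-56290761, minus strand: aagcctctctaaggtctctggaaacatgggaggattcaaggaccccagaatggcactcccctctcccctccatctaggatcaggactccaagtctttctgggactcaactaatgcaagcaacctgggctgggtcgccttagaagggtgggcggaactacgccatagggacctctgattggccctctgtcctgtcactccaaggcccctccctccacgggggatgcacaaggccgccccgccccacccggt
G0s2, chr1:193273189-193273438, minus strand: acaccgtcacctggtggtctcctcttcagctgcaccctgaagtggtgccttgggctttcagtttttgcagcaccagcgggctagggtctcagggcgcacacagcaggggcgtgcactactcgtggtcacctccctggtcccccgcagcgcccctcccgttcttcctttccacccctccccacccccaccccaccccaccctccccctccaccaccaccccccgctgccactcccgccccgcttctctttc
Plin2, chr4:86670060-86670309, minus strand: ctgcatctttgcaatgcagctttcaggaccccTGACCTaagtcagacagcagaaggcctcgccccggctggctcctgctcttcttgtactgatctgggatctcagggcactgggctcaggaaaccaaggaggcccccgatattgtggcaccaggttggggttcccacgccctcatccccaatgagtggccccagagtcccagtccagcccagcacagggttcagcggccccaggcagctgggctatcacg
Plin5, chr17:56117549-56117798, minus strand: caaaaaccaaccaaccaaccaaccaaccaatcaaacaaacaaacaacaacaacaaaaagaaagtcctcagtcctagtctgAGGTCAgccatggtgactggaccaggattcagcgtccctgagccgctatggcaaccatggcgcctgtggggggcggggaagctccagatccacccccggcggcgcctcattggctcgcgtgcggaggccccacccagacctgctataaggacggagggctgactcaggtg

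RefSeq promoters matched 9 of the 10 genes, Plin1 included, with 11 windows because Plin5 and Cidec have 2 starts each. AGGTCA was found in the Plin2 window, as its reverse complement 218 to 213 bases before the start, and in the Plin5 window shown, in the direction printed, 170 to 165 bases before it. The window of the other Plin5 start, chr17:56117299-56117548, held none of the 4 motifs. AGGTCA is present in 14.0% of the 32851 promoter windows of that length. TATAAA, present in 12.4% of windows, was found in the Cideb window, 172 to 167 bases before the start. Neither CACGTG (6.02% of windows) nor GTAAACA (3.17%) was found in any of the 11. The Cideb window contained 47.2% G and C, against 60.0% for Plin3, 67.2% for G0s2, 61.6% for Plin2 and 58.0% for the Plin5 window shown, with a median of 52.4% over all windows. Parts of the Plin2 and Plin5 windows shown lie inside the annotated span of the gene itself, and the Cideb window lies inside Ltb4r2. These are matches of letters within short windows and say nothing of which factor binds there.

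**Figure D1:**
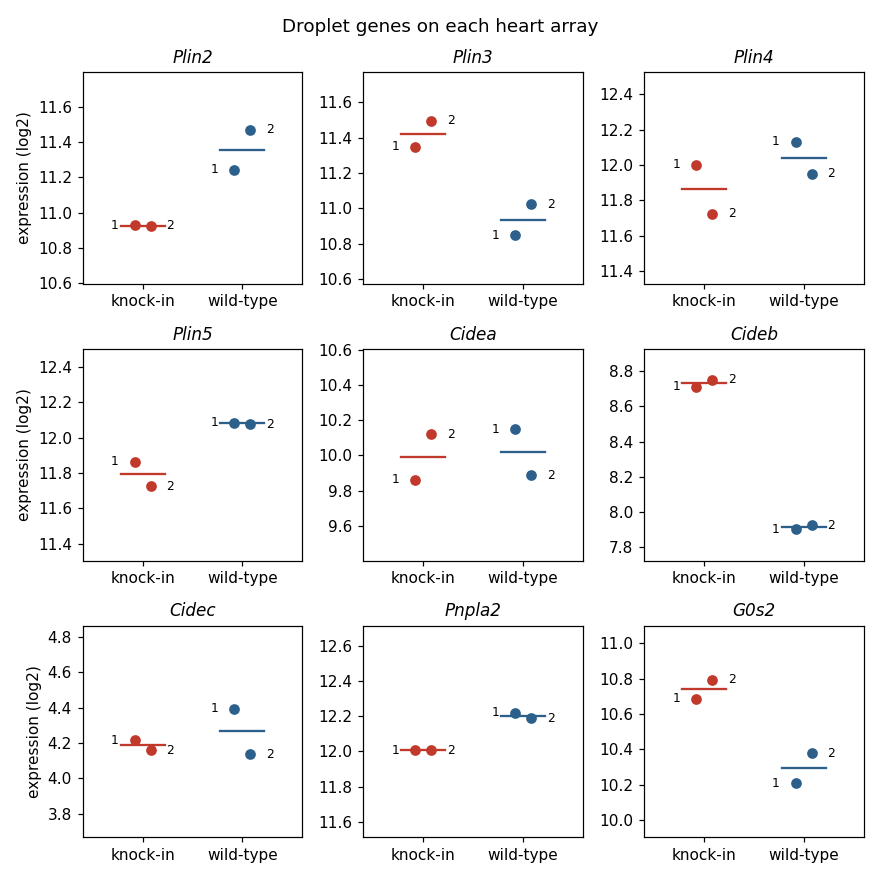
Each panel plots the log2 expression of 1 gene on the 2 knock-in arrays (red, left) and the 2 wild-type arrays (blue, right), with numbers for the replicate and a line at the group mean. All panels span the same log2 range, so that distances can be compared, and the groups stand apart for Plin2, Plin3, Plin5, Cideb, Pnpla2 and G0s2.

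The perilipins went both ways. Plin3 was higher in knock-in hearts, Plin2 and Plin5 were lower, and Plin4 had groups that overlapped. Plin5, which coats droplets in heart and other oxidative tissues and ties them to mitochondria, was at 11.86 and 11.72 in knock-in hearts, against 12.08 and 12.08 in wild-type hearts. It was 1.22-fold lower, with a log2 difference of -0.29 (95% interval from -0.53 to -0.04, unadjusted p of 0.0295 and adjusted p of 0.588 from limma). Both wild-type arrays had almost the same value and both knock-in arrays lay beneath them. A further Plin5 probe set gave 11.13 and 11.09 in knock-in hearts and 11.46 and 11.39 in wild-type hearts, so both probe sets put the knock-in arrays lower, by 0.29 and 0.31.

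Plin2, the coat protein found on droplets of most cell types and raised when cells load lipid, was at 10.93 and 10.92 in knock-in hearts and at 11.24 and 11.47 in wild-type hearts. It was 1.35-fold lower, a difference of -0.43 (interval from -0.71 to -0.15, unadjusted p of 0.00853, limma adjusted p of 0.432). The knock-in arrays were nearly equal, and the gap of 0.31 to the nearer wild-type array exceeded the 0.23 that separated the wild-type arrays from each other. Without wild-type 1 the difference was -0.54, and without wild-type 2 it was -0.32.

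Plin3, a coat protein that moves between the cytosol and new droplets, was at 11.35 and 11.50 in knock-in hearts and at 10.85 and 11.02 in wild-type hearts. It was 1.40-fold higher, a difference of 0.49 (interval from 0.21 to 0.76, unadjusted p of 0.00472, limma adjusted p of 0.366). The lower knock-in array still stood 0.33 above the higher wild-type array, more than either group's own spread of 0.15 and 0.18. Plin4, a coat protein of fat and muscle, was at 12.00 and 11.72 in knock-in hearts and at 12.13 and 11.95 in wild-type hearts, a difference of -0.18 (interval from -0.50 to 0.14, limma adjusted p of 0.829). Knock-in 1 lay above wild-type 2, so the Plin4 groups overlapped, and the interval leaves room for a decrease of the size seen for Plin2. Plin3, Plin4 and Plin5 all lie on chromosome 17, where Plin4 and Plin5 are next to each other in the annotation, yet Plin3 was higher in knock-in hearts and Plin5 lower.

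Cideb differed most among the 9 genes and Cidea and Cidec differed little. Cideb, a droplet protein best known from liver, where it helps load lipid onto very-low-density lipoprotein, was at 8.71 and 8.75 in knock-in hearts and at 7.90 and 7.93 in wild-type hearts. It was 1.76-fold higher, a difference of 0.82 (interval from 0.59 to 1.04, unadjusted p of 0.000106, limma adjusted p of 0.148), which placed it at rank 13 of 18193 genes by p. The arrays of each group were within 0.04 of each other, and the gap between the groups was 0.78. Over 11 alternative fits the limma adjusted p ran from 0.0397, with an intensity trend and robust prior, to 0.955, without knock-in 2. Its difference stayed between 0.80 and 0.85 in these fits.

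Hepatocyte markers moved in the same direction as Cideb. Of the 14, 13 were higher at an unadjusted limma p under 0.05, where 4.40% of all genes were, and none passed over all genes. In all 14 the knock-in arrays were apart and above (19.6% of all genes). The albumin gene Alb was at 8.58 and 9.66 in knock-in hearts and at 7.01 and 5.54 in wild-type hearts. The linear signals of the 14 markers summed to 1956 and 3179 in knock-in hearts and to 1058 and 783 in wild-type hearts. All 14 had a wild-type mean below the median of all genes. The arrays of a group differed by 1.09 in Alb for knock-in and by 1.47 for wild-type, the widest of the 14 markers in both groups. Tat had the smallest knock-in minus wild-type difference of the 14 (0.24) and the narrowest knock-in spread. In Tat the arrays of a group differed by 0.16 for knock-in and 0.06 for wild-type, and in Cideb by 0.04 and 0.02. The part of hepatocyte RNA in the Cideb difference was not tested. In the annotation Cideb overlaps Nop9 and Ltb4r2. Nop9 was at 7.99 and 8.26 in knock-in hearts and at 8.25 and 8.11 in wild-type hearts, a difference of -0.05 with overlapping groups, and Ltb4r2 was not analysed here. Whether transcripts of the overlapping genes add to the signal of the only Cideb probe set was not tested.

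**Figure D2:**
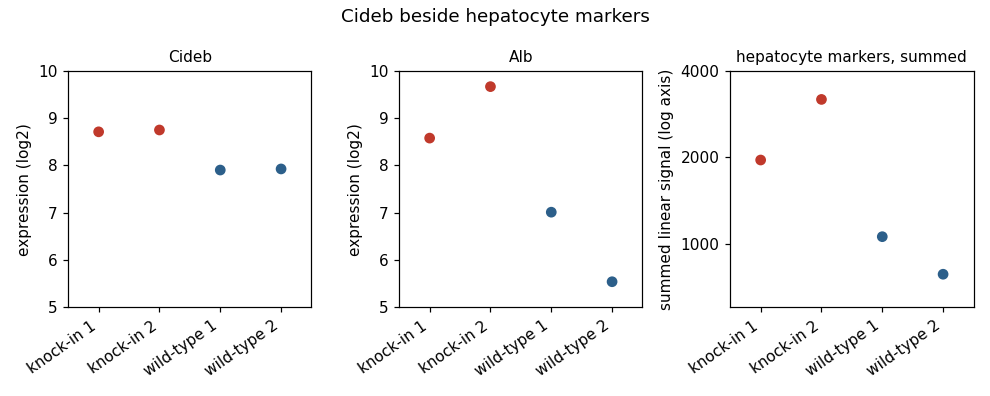
Points are single arrays, knock-in in red and wild-type in blue. The left and middle panels plot the log2 expression of Cideb and Alb on the same axis, and the right panel plots the summed linear signal of 14 hepatocyte markers on a log axis, where both knock-in arrays (1956 and 3179) lie above both wild-type arrays (1058 and 783).

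Cidea, a droplet protein abundant in brown fat, was at 9.86 and 10.12 in knock-in hearts and at 10.15 and 9.89 in wild-type hearts. The arrays of each group were 0.26 apart and the groups overlapped fully, with a difference of -0.03 (interval from -0.37 to 0.31, limma adjusted p of 0.994). Cidec, which enlarges the droplets of white fat cells, was dim, at 4.21 and 4.16 in knock-in hearts and at 4.39 and 4.14 in wild-type hearts. Its difference was -0.08 (interval from -0.37 to 0.21, limma adjusted p of 0.946), and at such dim values the array does not show whether the transcript is present.

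Fat cell markers were measured beside these genes because Plin4, Cidea and Cidec are also made by adipocytes. Of 9 white adipocyte markers 8 were higher in knock-in hearts, and 3 of them, Car3, Adipoq and Slc36a2, had an unadjusted p under 0.05 (4.40% of all genes were higher at this p). The same 3 of 9, or 33.3%, had groups that did not overlap, all with the knock-in arrays above. Of all genes, 19.6% were apart and higher and 36.5% were apart in either direction. Car3 differed most, at 8.07 and 8.26 in knock-in hearts and at 6.23 and 5.65 in wild-type hearts, 4.69-fold higher (limma adjusted p of 0.0724). Adipoq, which encodes adiponectin, was at 6.47 and 6.54 in knock-in hearts and at 5.11 and 5.65 in wild-type hearts. The linear signals of the 9 markers, of which Fabp4 is also made by endothelium and is the brightest, summed to 12492 and 12453 in knock-in hearts and to 11704 and 12512 in wild-type hearts. The leptin gene Lep was dim on every array, at 4.32 and 4.47 in knock-in hearts and at 4.39 and 4.34 in wild-type hearts. Ucp1, the defining gene of brown fat, was dim too, at 4.89 and 4.50 in knock-in hearts and at 5.09 and 4.63 in wild-type hearts. None of the 6 brown adipocyte markers had an unadjusted limma p under 0.05, and the linear signals of the 6, of which Cox8b and Cox7a1 are also heart genes, summed to 30777 and 31676 in knock-in hearts and to 32099 and 31706 in wild-type hearts. The part of fat cell or hepatocyte RNA in the values of Plin4, Cidea, Cidec and the other droplet genes, G0s2 included, was not tested.

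Of the lipase and its inhibitor, G0s2 was higher in knock-in hearts at an unadjusted p under 0.05, and Pnpla2 did not reach that p. Pnpla2 was at 12.01 and 12.01 in knock-in hearts and at 12.22 and 12.19 in wild-type hearts. Replicates lay within 0.03 of each other in both groups, and the knock-in arrays were 0.18 below the nearer wild-type array. The difference of -0.20, or 1.15-fold lower, had an interval from -0.42 to 0.03, an unadjusted p of 0.0813 and a limma adjusted p of 0.718. The second Pnpla2 probe set, much dimmer, was at 5.49 and 5.69 in knock-in hearts and at 6.11 and 5.84 in wild-type hearts. It differed by -0.39 (limma p of 0.0314, adjusted p of 0.829 over all 45037 probe sets other than controls), so both put the knock-in arrays lower.

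G0s2 was at 10.69 and 10.79 in knock-in hearts and at 10.21 and 10.38 in wild-type hearts. It was 1.36-fold higher, a difference of 0.45 (interval from 0.18 to 0.71, unadjusted p of 0.00597, limma adjusted p of 0.398). The gap of 0.31 between the groups exceeded the spread within each, 0.11 for knock-in and 0.17 for wild-type. On each array the G0s2 value minus the Pnpla2 value was set against its wild-type mean, a contrast chosen after the values were seen. It was 0.59 and 0.70 in knock-in hearts and -0.10 and 0.10 in wild-type hearts, a shift of 0.64, or 1.56-fold. An exact two-sided permutation test of 2 against 2 arrays gave p = 0.333, the smallest it can give. That outcome was fixed beforehand, since the groups of both genes did not overlap and lay in opposite directions.

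**Figure D3:**
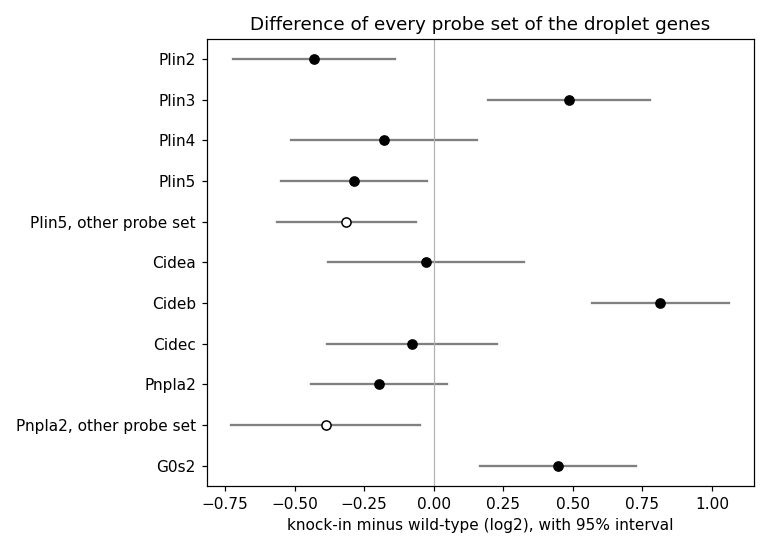
Knock-in minus wild-type differences on the log2 scale for all 11 probe sets, as points with 95% intervals from the limma fit over all 45037 probe sets, so that intervals are slightly wider than those of the gene fit given in the text. Filled points are the probe set with the highest mean of a gene and open points are the second probe sets of Plin5 and Pnpla2, which differ in the same direction as the first.

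Leaving out 1 array at a time kept the direction of Plin2, Plin3, Plin4, Plin5, G0s2, Pnpla2 and Cideb. With 1 array left out, Plin2 ran from -0.54 to -0.32, Plin3 from 0.40 to 0.58, G0s2 from 0.36 to 0.53 and Cideb from 0.80 to 0.83. Plin5 ran from -0.36 without knock-in 1 to -0.22 without knock-in 2, and it did not keep an unadjusted limma p under 0.05 in each such fit. Plin4 differed by -0.32 without knock-in 1 and by -0.04 without knock-in 2, so its size turned on single arrays. Cidea was at 0.10 without knock-in 1, -0.16 without knock-in 2, 0.10 without wild-type 1 and -0.16 without wild-type 2, and Cidec turned from -0.08 with all arrays to 0.05 without wild-type 1.

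**Figure D4:**
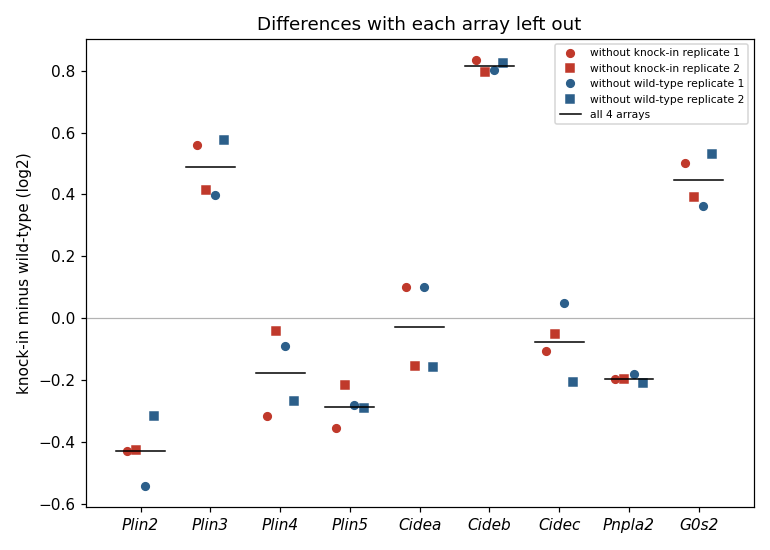
Knock-in minus wild-type log2 differences of the 9 genes with each array left out in turn (red circles and squares, without knock-in 1 and 2; blue circles and squares, without wild-type 1 and 2) and with all 4 arrays (black lines). Cideb stays between 0.80 and 0.83, while points of Cidea and Cidec fall on both sides of 0.

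Other genes of droplet turnover were read from 4 lists with 44 measured members in all, of which none passed over all genes in limma and 12 (27.3%, against 7.39% of all genes) had an unadjusted p under 0.05, 2 higher and 10 lower in knock-in hearts. With all probe sets of a gene averaged, the 12 became 10, where 7.01% of all genes had such a p. It became 13 with an intensity trend and robust prior (8.35% of all genes) and 13 among genes above the median (12.1% of those genes). Among 12 other lipases and regulators of lipolysis, 3 were lower at that p (2.99% of all genes) and none was higher. Lipe, the hormone-sensitive lipase that cuts diacylglycerol after ATGL, was at 7.98 and 7.86 in knock-in hearts and at 8.80 and 8.59 in wild-type hearts, 1.71-fold lower (limma adjusted p of 0.226). Mgll, the monoacylglycerol lipase that releases the last fatty acid, was at 11.41 and 11.58 in knock-in hearts and at 11.96 and 11.88 in wild-type hearts, 1.34-fold lower (limma adjusted p of 0.413). Ces1d, a carboxylesterase with triglyceride lipase activity, was 1.21-fold lower (limma adjusted p of 0.660). Abhd5, which encodes the ATGL activator CGI-58, was at 9.49 and 9.71 in knock-in hearts and at 9.40 and 9.32 in wild-type hearts, a difference of 0.24 (interval from -0.04 to 0.52, limma adjusted p of 0.717). Hilpda, a further inhibitor of ATGL, differed by 0.18 with overlapping groups (limma adjusted p of 0.828).

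Of 13 measured genes of droplet formation, 2 were higher (4.40% of all genes) and 2 lower (2.99% of all genes) at an unadjusted p under 0.05. Fitm2, an endoplasmic reticulum protein needed for droplets to form, was at 11.20 and 11.32 in knock-in hearts and at 11.70 and 11.70 in wild-type hearts, 1.36-fold lower (limma adjusted p of 0.357). Hsd17b11, a droplet-associated dehydrogenase, was 1.47-fold lower (limma adjusted p of 0.392). Dgat1, which adds the last acyl chain of triglyceride, was at 9.29 and 9.32 in knock-in hearts and at 9.09 and 8.96 in wild-type hearts, 1.21-fold higher (limma adjusted p of 0.598). Pcyt1a, which makes the CDP-choline for the droplet's phospholipid surface, was also 1.21-fold higher (limma adjusted p of 0.646). Of 6 measured genes of hormone control none had an unadjusted limma p under 0.05, and the smallest p belonged to the insulin receptor Insr (0.19) and the protein kinase A subunit Prkaca (0.18), given as log2 differences.

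Several perilipin and lipase genes are PPAR targets, so other PPAR targets and the receptors were read beside them. Of 13 measured, 5 were lower and none higher at an unadjusted limma p under 0.05, at which 2.99% of all genes were lower and 4.40% higher. The pyruvate dehydrogenase kinase Pdk4 was 2.99-fold, Angptl4 2.11-fold, the mitochondrial carrier Ucp3 2.05-fold, the acyl-CoA thioesterase Acot1 1.92-fold and the peroxisomal oxidation enzyme Ehhadh 1.47-fold lower in knock-in hearts. Their limma adjusted p ran from 0.0724 for Ucp3 to 0.587 for Ehhadh. Angptl4, itself a secreted inhibitor of lipoprotein lipase, was at 8.05 and 8.15 in knock-in hearts and at 8.91 and 9.44 in wild-type hearts. The receptors Ppara (0.13), Ppard (-0.08) and Pparg (-0.03) differed by less on the log2 scale and none had an unadjusted p under 0.05. Plin2 and Plin5 lay on the same side as these 5 targets and G0s2, which PPARs also control, on the other. The list was chosen with earlier results of these arrays known, so its direction is no independent evidence.

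**Figure D5:**
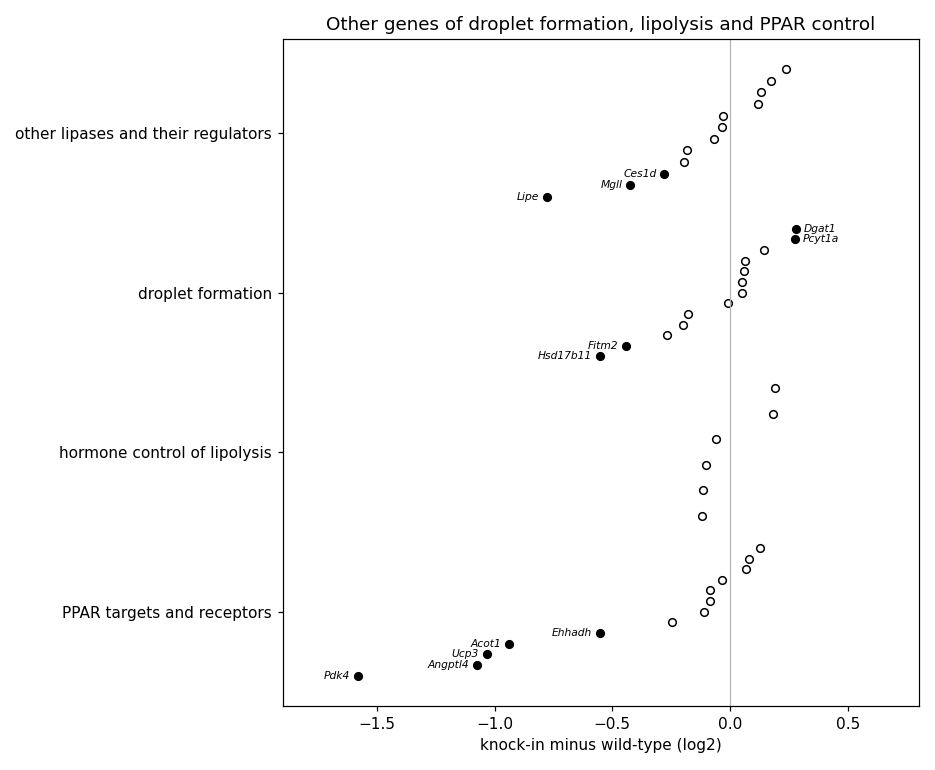
Knock-in minus wild-type log2 differences of the 44 other genes, 1 row of points per list, sorted within a list. Filled points with names have an unadjusted limma p under 0.05, of which 10 lie left of 0 and 2 right of it.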

How the data were processed

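Deposited values were log2 expression values that the authors made with RMA in Affymetrix Expression Console, per the submitters' processing notes, with no version stated. The wild-type arrays are titled as the control for beta, and the main fit used the deposited values without further normalization. RMA gives no detection call. Groups and replicate numbers came from the sample titles. Of 45101 probe sets, 64 were controls and 34945 had 1 gene symbol, updated through Entrez identifiers with RefSeq (GRCm38.p6). The brightest probe set by mean over the 4 arrays stood for a gene, which gave 18193 genes, and no filter was applied. All were fitted together in limma 3.58.1 (R 4.3.3; lmFit, then eBayes), two-sided, at a threshold of 0.05 after Benjamini-Hochberg adjustment across genes, and the same test was checked on simulated data. A second fit held all 45037 probe sets other than controls. Errors of differences are 95% intervals from the limma fit, with n = 2 arrays per group, and the number of arrays limits the precision. Because eBayes draws each gene's variance towards a value from all genes, these errors are not the gene's own replicate spread. For Pnpla2 the standard deviation was 0.0003 in knock-in and 0.022 in wild-type hearts, and the standard error of the difference was 0.094.

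The members, lists, tests and the rule for named genes (all members, Lipe, Abhd5, Mgll and Hilpda, and list genes at an unadjusted p under 0.05, otherwise the 2 of smallest p) were chosen with earlier results of these data known. Of the 50 genes on the pathway lists, 6 were not analysed here. The other marker lists (skeletal muscle, endothelium, fibroblast, macrophage and erythrocyte) had no member at an unadjusted p under 0.05. Of the 6 macrophage markers, 6 were higher in knock-in hearts, as were 9140 of all 18193 genes. In 5 of the 6 the groups did not overlap (19.6% of all genes were apart and higher). Their linear signals summed to 7372 and 7728 in knock-in hearts and to 6712 and 7182 in wild-type hearts. The 8 cardiomyocyte markers were all higher too, 5 of them with groups that did not overlap and none at an unadjusted limma p under 0.05. Replicate numbers did not pair the arrays by any label. Alternatives were centring, quantile normalization, an intensity trend with robust prior, the replicate block, genes above the median, other choices of probe set, a minimum change of 1.2-fold and leaving out each array.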

Additional observations from a re-analysis of the deposited data

How the results depend on the processing

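With 2 arrays a group, no droplet gene passed over all genes except in the fit with an intensity trend and robust prior, where 1 did, Cideb. The number of droplet genes at an unadjusted limma p under 0.05 ran from 4 to 6 over the alternatives on all 4 arrays that test against no change. The share of all fitted genes at this p ran from 6.28% (replicate block) to 12.1% (genes above the median) over these. Against a minimum change of 1.2-fold, an alternative added for this count after seeing the data, it was 2, Cideb and Plin3. Of all genes, 1.43% reached this p there. The median difference over the 9 genes was -0.08, -0.040 with each array centred, and from -0.207 (without wild-type 2) to 0.050 (without wild-type 1) with 1 array left out. In each of these fits the median was the difference of Cidec, the dim gene, so its movement is that of Cidec. Cidea, from -0.158 to 0.102 with 1 array left out, turned to 0.0109 with centred arrays, to 0.101 without knock-in 1 and to 0.102 without wild-type 1. Cidec, from -0.207 to 0.050, turned without wild-type 1. The cause was not tested. The other 7 measured genes kept their direction in every alternative run. With the replicate number as a block, 0 of the 9 genes passed, 5 of the 9 had an unadjusted p under 0.05, the median stayed at -0.08, and of the pathway genes 11 had such a p, against 12 without the block. Same-numbered arrays did not deviate together (r of -0.03 over genes), and no label pairs them. With all probe sets of a gene averaged, 10 pathway genes had such a p, where 7.01% of all genes did. Fits with 1 array left out give a single remaining array the spread of the other group. A minimum change of 1.2-fold left 0 genes past the threshold, and Cidec was not among genes above the median.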
